A study of Mus musculus with 15 samples.

Results

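The transcripts described here are 10 genes used as markers of macrophages and of neutrophils with their precursors. They were taken from the deposited table by gene symbol, of 31298 symbols in all. The 5 macrophage markers are C1qa, C1qb, C1qc, Adgre1 and Vcam1, and the 5 neutrophil markers are S100a8, S100a9, Ltf, Ngp and Camp. All 10 symbols were found once, and all 10 passed the filter on low values. They were followed through RNA sequencing libraries of mouse hematopoietic stem cells (HSCs), a sort that is meant to leave mature cells out, to show how much myeloid transcript each library held and how far its replicates spread.

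The mice (strain hCD34-tTA x TetO-H2BGFP) carried histone H2B fused to green fluorescent protein under a tetracycline operator, with the transactivator driven by human CD34 regulatory sequence. All received doxycycline at 1 mg/ml in their drinking water, which shuts the label off so that divisions dilute it. HSCs were sorted from lineage-depleted bone marrow as LSK cells (lineage-negative, Sca1-positive, c-Kit-positive) that were CD48-, Flk2- and CD150+, and were divided by retained label into GFP4, GFP3, GFP2 and GFP1; the undivided sort is Total. There were 3 libraries (replicates I, II and III) for each of the 5 groups. Throughout, replicate I came from mice aged 5 months after 12 weeks of doxycycline, replicate II from mice aged 5.5 months after 14 weeks, and replicate III from mice aged 6.5 months after 16 weeks. The labels do not say which end of the GFP numbering keeps more label, whether a library is 1 mouse or a pool, whether the same-numbered libraries share mice, or the sex of the mice. Where replicates share a source, the p-values below measure only the spread between these libraries.

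Macrophages of the bone marrow engulf dying cells and expelled nuclei, surround developing red cells and supply iron. They make most of the complement component C1q, whose A, B and C chains are encoded side by side and assemble into the molecule that starts the classical complement pathway. Neutrophils load their granules while they mature in the marrow, so that granule proteins such as lactoferrin are transcribed in neutrophil precursors, and S100a8 and S100a9 encode the subunits of calprotectin, an abundant protein of their cytoplasm. HSCs are not a known source of C1q or of secondary granule proteins. In a bulk library, fewer cells of a type and less RNA per cell cannot be told apart.

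Several members are neighbours in the genome (GRCm38). C1qb (chr4:136880129-136886187), C1qc (chr4:136889804-136893065) and C1qa (chr4:136895917-136898803) lie within 18.7 kb on the minus strand of chromosome 4. S100a8 (chr3:90668978-90670035, plus strand) and S100a9 (chr3:90692632-90695721, minus strand) lie within 26.7 kb on chromosome 3. Camp (chr9:109847379-109849617), Ngp (chr9:110419747-110423012) and Ltf (chr9:111019271-111042767) are spread over 1195 kb of chromosome 9. Vcam1 (chr3:116109949-116129688) and Adgre1 (chr17:57358691-57483527) stand apart from the rest.

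The sequence just before the gene start is shown for a pair of C1q chains and for both calprotectin genes, since the members of each pair moved together across the libraries. The sequences are those of RefSeq on GRCm38.p6, which matched 7 of the 10 members. Each is written 5′ to 3′ along the gene's own strand and ends before the first base of the gene. Capitals mark matches, on either strand, to TTNNGNAA, a short form of the site of C/EBP factors that drive granulocyte genes, or to GAGGAA, a core bound by the myeloid factor PU.1; no match to one motif overlaps a match to the other. The windows are chr4:136886201-136886450 (minus strand) for C1qb, chr4:136893066-136893164 (minus strand) for C1qc, chr3:90668821-90668977 (plus strand) for S100a8 and chr3:90695722-90695971 (minus strand) for S100a9.
C1qb: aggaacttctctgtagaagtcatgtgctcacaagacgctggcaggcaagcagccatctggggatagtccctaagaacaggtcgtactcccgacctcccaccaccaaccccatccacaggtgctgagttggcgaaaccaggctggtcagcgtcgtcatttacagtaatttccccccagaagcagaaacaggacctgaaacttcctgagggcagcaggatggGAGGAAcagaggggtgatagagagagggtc
C1qc: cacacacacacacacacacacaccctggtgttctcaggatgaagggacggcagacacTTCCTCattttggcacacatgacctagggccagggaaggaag
S100a8: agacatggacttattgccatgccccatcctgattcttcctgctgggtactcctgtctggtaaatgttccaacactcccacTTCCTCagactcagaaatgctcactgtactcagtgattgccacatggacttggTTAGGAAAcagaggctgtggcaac
S100a9: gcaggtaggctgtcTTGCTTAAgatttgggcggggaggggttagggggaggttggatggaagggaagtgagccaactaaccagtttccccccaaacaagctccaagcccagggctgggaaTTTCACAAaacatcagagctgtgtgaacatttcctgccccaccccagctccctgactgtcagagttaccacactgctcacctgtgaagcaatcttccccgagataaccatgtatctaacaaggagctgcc
The PU.1 letters stood once each in C1qb, C1qc and S100a8, and the C/EBP letters stood once in S100a8 and 2 times in S100a9. Of 32851 promoters cut to the same length, 36.8% hold the C/EBP letters and 23.3% the PU.1 letters in 250 bases; in 157 bases the shares are 27.1% and 15.3%, and in 99 bases 18.6% and 9.91%. Among all 7 promoters that matched, 4 held the C/EBP letters (S100a8, S100a9, Ltf and Ngp) and 4 held the PU.1 letters (C1qb, C1qc, S100a8 and Ltf). Such matches are common in promoters of any gene and describe letters, not binding.

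The values below are the deposited log2 values, quantile normalized by the authors so that every library has nearly the same distribution. They are levels on a relative scale of unknown offset, and read depth is not known. All libraries reach the same top value, 19.1156, and the lowest value in the file is 0.1375. No value is corrected for gene length by any step that the sources used here state, so levels are compared between libraries and not between genes. HSC identity genes such as Procr and Mecom (12 listed) summed to between 3043 and 6540 ppm of a library's summed linear values, so the sorted cell type was present in all 15 libraries. One library of each group stood apart by its Y-linked transcripts, which were chosen after their values were seen. In GFP4 replicate II and in replicate I of GFP3, GFP2, GFP1 and Total, Ddx3y lay between 1.59 and 3.92, against 10.93 to 11.93 in the other 10 libraries. Eif2s3y lay between 0.14 and 4.22 in those 5 libraries, against 11.02 to 11.86 in the other 10. Further Y-linked genes were less far apart. Uty lay between 6.74 and 7.57 in those 5 libraries, against 10.19 to 11.50 in the other 10. Kdm5d lay between 9.21 and 10.6, against 10.77 to 11.80. The low library is thus numbered II in GFP4 and I in the other 4 groups. Whether the GFP4 libraries I and II carry exchanged numbers or came from other mice cannot be told from the files, so the replicate numbers of GFP4, and the ages they stand for, are uncertain; group means do not depend on them. Results on the members are therefore also given without these 5 libraries.

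The C1q chains were present in every library, and their level ranged more widely between replicates than between groups. C1qa measured 10.65, 8.05 and 9.33 in GFP4 replicates I, II and III, 9.35, 11.18 and 10.14 in those of GFP3, 9.57, 12.22 and 10.44 in those of GFP2, 7.66, 11.73 and 8.53 in those of GFP1, and 8.53, 11.05 and 9.69 in Total. Replicate II was the highest library of GFP3, GFP2, GFP1 and Total and the lowest of GFP4, and every group overlapped every other. Within GFP1 the libraries spanned 4.07 log2 units, while the 5 group means spanned 1.44. From GFP1 replicate I, the lowest library, to GFP2 replicate II, the highest, C1qa spanned 23.7-fold. Group means ± SD (n = 3 each) were 9.34 ± 1.30 in GFP4, 10.22 ± 0.92 in GFP3, 10.74 ± 1.35 in GFP2, 9.30 ± 2.14 in GFP1 and 9.76 ± 1.26 in Total. The order of the means was therefore GFP2, GFP3, Total, GFP4 and GFP1, and each step between neighbours was smaller than the SD of either.

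C1qb and C1qc gave the same picture at their own levels. C1qc ranged from 8.26 in GFP1 replicate I to 12.66 in GFP2 replicate II, and C1qb spanned 17.7-fold between the same libraries. The C1qa value minus the C1qb value stayed between -1.20 and -0.61 over the 15 libraries, with an SD of 0.16, while C1qa alone had an SD of 1.35 and C1qb an SD of 1.26. The C1qa to C1qc ratio varied 1.29-fold over libraries in which C1qa itself varied 23.7-fold.

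Adgre1, which encodes a surface receptor that defines mouse macrophages, followed the C1q chains. It measured 9.61, 7.69 and 8.10 in GFP4, 8.21, 10.12 and 8.91 in GFP3, 8.96, 11.16 and 9.25 in GFP2, 6.63, 10.81 and 8.05 in GFP1, and 7.45, 10.31 and 8.54 in Total. Its lowest and highest libraries were those of the C1q chains, 23.1-fold apart.

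Vcam1 encodes an adhesion molecule of marrow macrophages that stromal and endothelial cells also make. It measured 12.35, 10.88 and 10.90 in GFP4, 12.31, 13.09 and 12.78 in GFP3, 11.77, 14.18 and 12.73 in GFP2, 10.54, 13.60 and 10.66 in GFP1, and 11.22, 12.75 and 10.95 in Total. Its GFP3 libraries lay close together, at 12.73 ± 0.40 (SD, n = 3), while its GFP1 libraries spread to 11.60 ± 1.74 (SD, n = 3). Vcam1 kept a looser ratio to C1q than the other macrophage markers did. The Vcam1 value minus the C1qb value ran from 0.22 in Total replicate III to 2.11 in GFP3 replicate I, with an SD of 0.46, against an SD of 0.32 for Adgre1 minus C1qb.

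**Figure D1:**
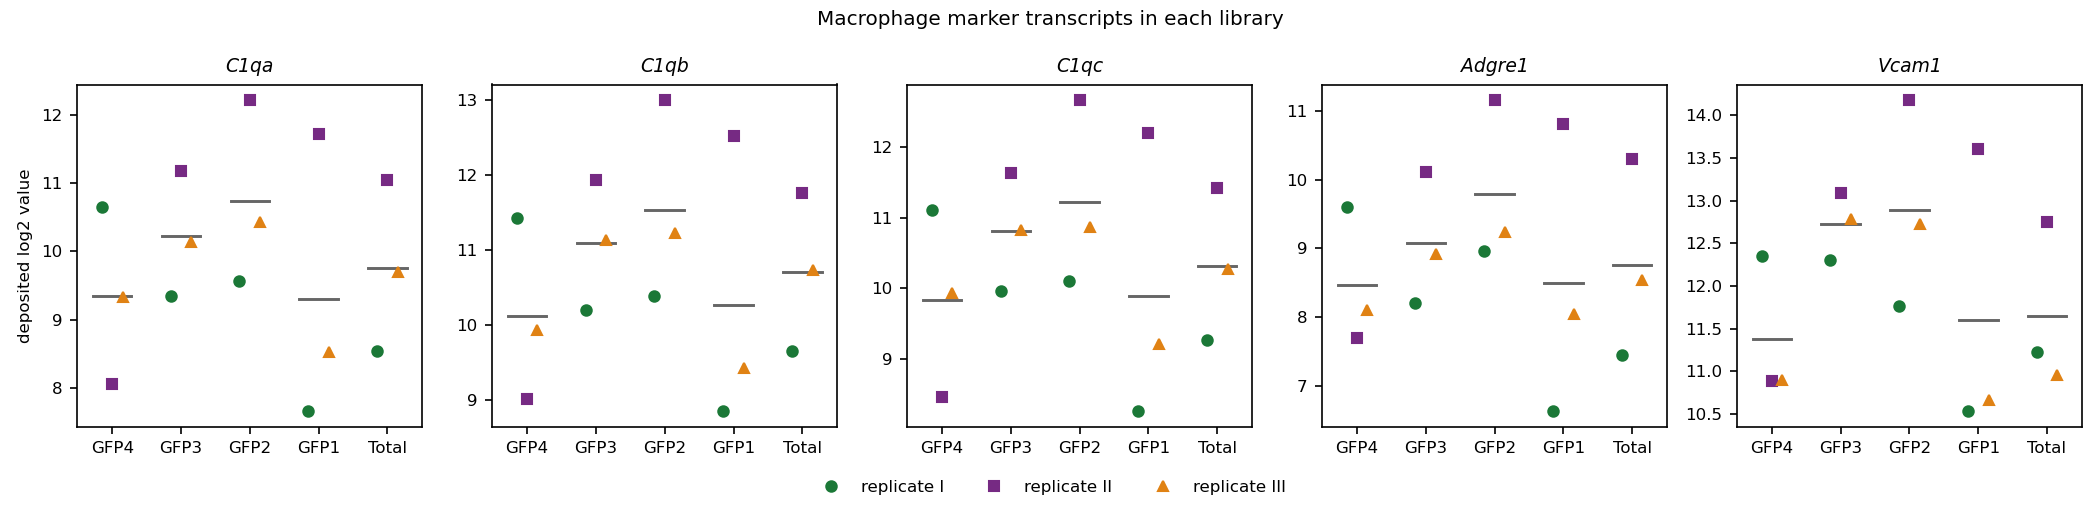
Deposited log2 value (y axis) of the 5 macrophage markers in each library, by group (x axis); symbols are replicates I, II and III and grey lines are group means. Replicate II is highest in GFP3, GFP2, GFP1 and Total and lowest in GFP4 for C1qa, C1qb, C1qc and Adgre1, and the groups overlap.

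Calprotectin transcripts were high in all libraries and less variable than the macrophage markers. S100a8 measured 16.20, 14.90 and 16.04 in GFP4 replicates I, II and III, 15.48, 15.90 and 15.61 in GFP3, 14.45, 15.57 and 15.23 in GFP2, 15.28, 16.14 and 15.39 in GFP1, and 14.12, 15.12 and 15.76 in Total. From Total replicate I to GFP4 replicate I it spanned 4.23-fold, and every group overlapped every other. S100a9, which encodes the partner subunit, ranged from 14.01 to 15.98 with the same lowest and highest libraries. The S100a8 value minus the S100a9 value stayed between 0.11 in Total replicate I and 0.51 in GFP1 replicate III, with an SD of 0.12.

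The granule genes varied in step with calprotectin. Ltf, encoding the iron-binding granule protein lactoferrin, measured 14.18, 12.64 and 13.97 in GFP4, 13.38, 14.04 and 13.26 in GFP3, 11.53, 13.45 and 13.21 in GFP2, 13.13, 13.80 and 13.42 in GFP1, and 12.29, 13.31 and 13.72 in Total. GFP2 replicate I was the lowest library and GFP4 replicate I the highest, 6.28-fold apart. Ngp, encoding a neutrophil granule protein of the cystatin superfamily, ranged from 12.95 to 15.41 between the same libraries. Camp, encoding the precursor of the antimicrobial peptide cathelicidin, ranged from 11.80 in GFP2 replicate I to 14.17 in GFP1 replicate II.

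**Figure D2:**
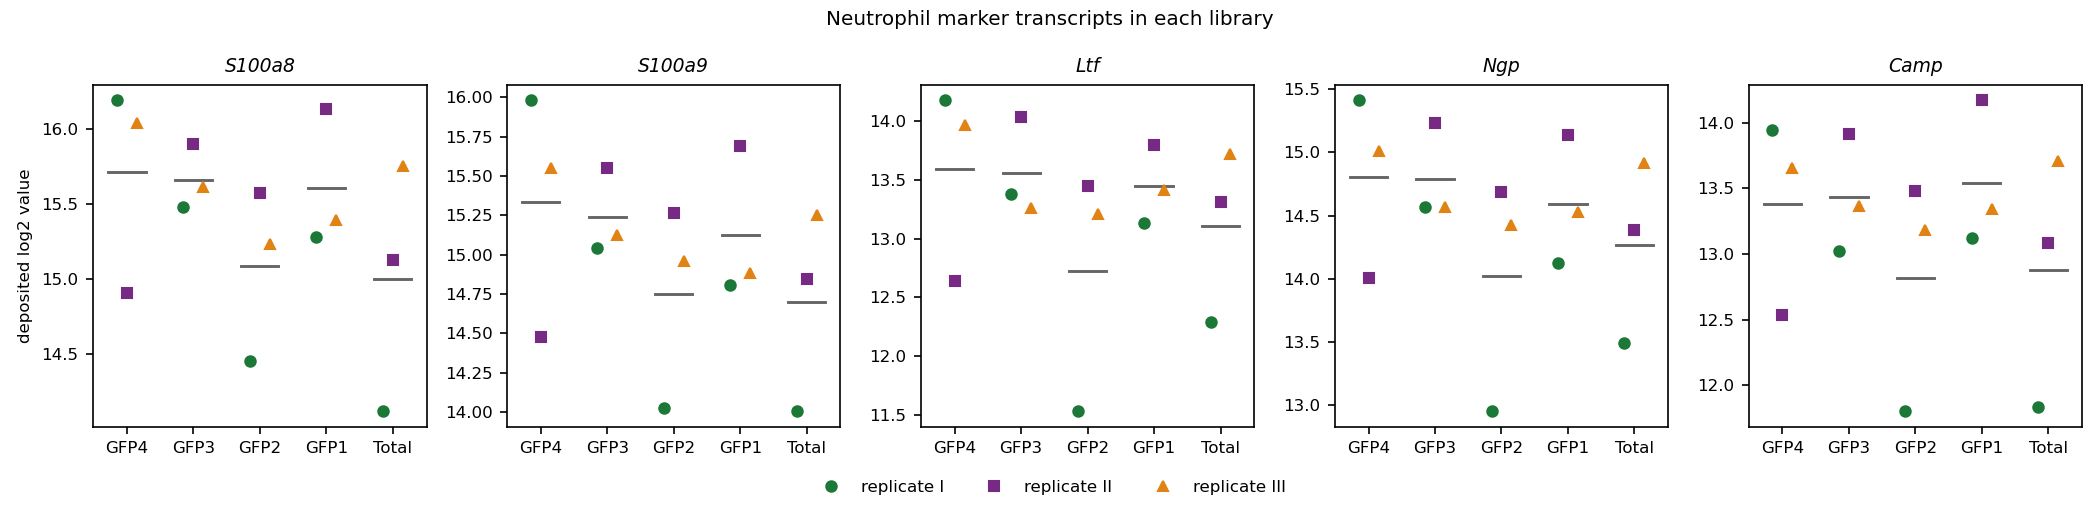
Deposited log2 value (y axis) of the 5 neutrophil markers in each library, by group (x axis); symbols are replicates I, II and III and grey lines are group means. GFP4 replicate II and replicate I of GFP2, GFP1 and Total are the lowest libraries of their groups for all 5 genes.

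No member was called different between any groups. In limma's F test for any difference among the 5 groups, 0 of 10 members passed an adjusted p of 0.05, where 14.4% of all tested genes did; the lowest adjusted p of a member was 0.715, for Vcam1. In the 8 pairwise comparisons limma also called 0 of 10 members each time. The share of all tested genes called was 0.0572% in GFP3 against GFP4, 0% in GFP2 against GFP3, 7.17% in GFP1 against GFP2 and 19.5% in GFP1 against GFP4. Against Total it was 10% with GFP4, 2.14% with GFP3, 0.329% with GFP2 and 1.73% with GFP1. At an unadjusted p of 0.05, 0 of 10 members passed in the F test and in each of the 8 comparisons. The share of all tested genes under that threshold was 23.1% in the F test, and in the comparisons it ran from 5.6% (GFP2 against GFP3) to 27.9% (GFP1 against GFP4). Markers of the same set varied together, so the 10 members are not independent of each other. Where few of all tested genes passed, 0 of 10 is near that share and says little about the members.

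Complete separation of groups was likewise not seen. In 0 of 10 members did all 3 libraries of one group lie above all 3 of the other, in each of the 8 comparisons. The share of all tested genes that separated in this way, in either direction, was 11.4% in GFP3 against GFP4, 10.4% in GFP2 against GFP3, 24.6% in GFP1 against GFP2 and 32.8% in GFP1 against GFP4. Against Total it was 22.1% for GFP4, 16.1% for GFP3, 8.71% for GFP2 and 15.1% for GFP1. Here too the members are not independent of each other.

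The intervals of the differences were wide, and for the macrophage markers they included differences of several-fold. C1qa was at 9.30 in GFP1 and 10.74 in GFP2, a difference of -1.44 (SE 1.18, 95% interval -4.05 to 1.17, limma adjusted p = 0.625). Its difference between GFP1 and GFP4 was -0.037 (SE 1.18, 95% interval -2.65 to 2.58, limma adjusted p = 0.994), and the sign of that value depended on single libraries, with 0.79 when GFP1 replicate I was left out and -1.25 when GFP1 replicate II was. GFP2 minus Total gave 0.99 for C1qa (SE 1.18, 95% interval -1.63 to 3.60, limma adjusted p = 0.945). Vcam1 was at 12.73 in GFP3 and 11.38 in GFP4, a difference of 1.35 (SE 0.91, 95% interval -0.67 to 3.36, limma adjusted p = 1).

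The neutrophil markers were bounded more tightly. S100a8 was at 15.71 in GFP4 and 15.00 in Total, a difference of 0.72 (SE 0.48, 95% interval -0.36 to 1.79, limma adjusted p = 0.478). Ngp was at 14.59 in GFP1 and 14.02 in GFP2, a difference of 0.57 (SE 0.55, 95% interval -0.65 to 1.80, limma adjusted p = 0.696). Leaving out GFP2 replicate I, its lowest library, moved that difference to 0.038. Over the 5 macrophage markers the median difference between GFP1 and GFP2 was -1.29, over the 5 neutrophil markers it was 0.57, and over all tested genes it was -0.051.

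The spread between replicates was wider for the members than for most genes of like level. The within-group SD of the log2 value was 1.45 for C1qa, 1.34 for C1qb, 1.38 for C1qc, 1.41 for Adgre1 and 1.12 for Vcam1. It was 0.596 for S100a8, 0.589 for S100a9, 0.724 for Ltf, 0.683 for Ngp and 0.744 for Camp. Genes whose mean lay within 1 log2 unit of the member's had a median SD between 0.123 and 0.219. Of those genes, 99.6% to 99.9% had a lower SD than the macrophage member and 97.8% to 99.4% a lower SD than the neutrophil member. The members were chosen with earlier results of these data known, and a wide spread was not particular to them. Within GFP1 alone, 20 other macrophage genes (below) summed to between 173 and 1107 ppm. Within GFP2, 22 other neutrophil genes summed to between 1633 and 3243 ppm.

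**Figure D3:**
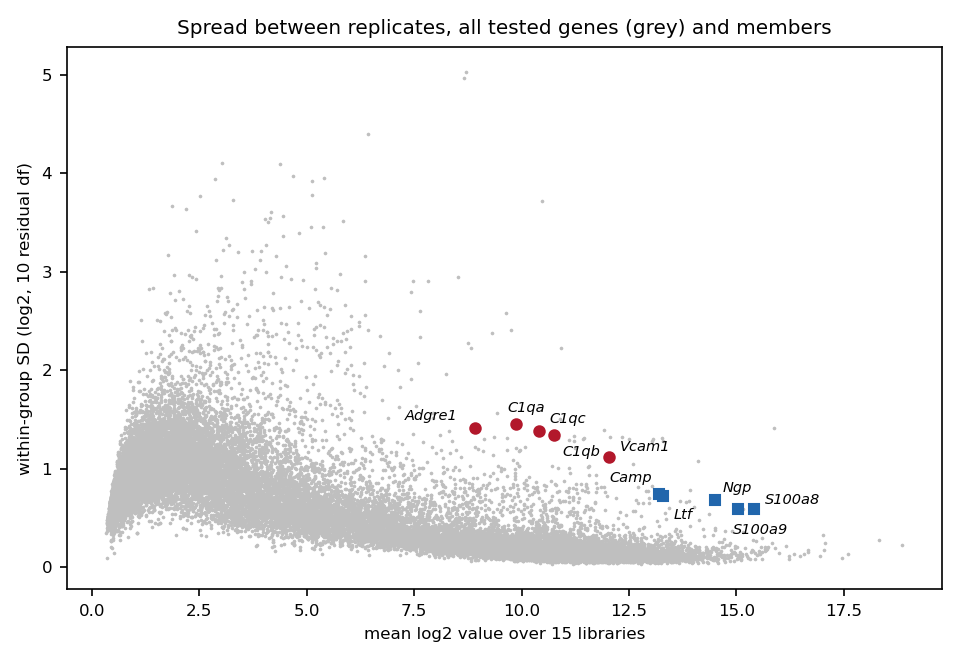
Within-group SD of the log2 value (y axis, 10 residual degrees of freedom) against the mean log2 value over 15 libraries (x axis) for all tested genes in grey, with macrophage markers as red circles and neutrophil markers as blue squares. The macrophage markers sit between 1.12 and 1.45 and the neutrophil markers between 0.589 and 0.744, above most genes of like mean.

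Within a group, the same library was high or low for nearly every member of a set. GFP4 replicate I and replicate II of GFP3, GFP2, GFP1 and Total were the highest libraries for all 5 macrophage markers. The neutrophil markers had the same highest libraries in GFP4, GFP3, GFP2 and GFP1, while in Total replicate III was highest for all 5. The lowest library was the one low in Y-linked transcripts for 24 of 25 group and gene pairs among the macrophage markers, and for 24 of 25 among the neutrophil markers. The exceptions were Vcam1 in Total, lowest in replicate III, and Ltf in GFP3, also lowest in replicate III. Genes of a set varied together, so the 25 pairs stand for 5 groups and not for 25 separate cases. Outside GFP4 the class low in Y-linked transcripts was replicate I. There it cannot be told apart from age, time on doxycycline or replicate number. In a fit with that class as a covariate, the 5 libraries low in Y-linked transcripts were compared with the other 10. The low libraries minus the others averaged from -1.86 (C1qa) to -1.06 (Vcam1) among macrophage markers. Among neutrophil markers the average ran from -1.12 (Camp) to -0.839 (S100a9). The residual SD was then 1.03 for C1qa (1.45 without the covariate), 0.992 for Vcam1 (1.12) and 0.388 for Camp (0.744). The part of this class in the results was not tested. Without those 5 libraries, which leaves 2 libraries a group, limma called 0 of 10 members in the F test and in each comparison, with a lowest adjusted p of 0.315, in GFP4 against Total. With the class as a covariate it also called 0 of 10 members, with a lowest adjusted p of 0.17, again in GFP4 against Total. Of all 27994 tested genes, the F test called 2561 without those libraries and 4677 with the covariate. In GFP4 against Total the calls were 1847 and 3391.

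Across the 15 libraries, the members of each set were high and low together; the sets were less closely tied to each other than their own members were. All 45 pairs of members were correlated, with permutation p-values adjusted by Benjamini-Hochberg over the 45. For the 10 pairs of macrophage markers Pearson's r was 0.903 to 0.997 and Spearman's rho 0.896 to 1. The adjusted permutation p was 2.37e-05 for r and 3e-05 to 6.75e-05 for rho. Unadjusted, the permutation p for r was 1e-05 in each pair, the smallest the permutations can give. For the 10 pairs of neutrophil markers r was 0.922 to 0.986 and rho 0.904 to 0.982 (adjusted permutation p 2.37e-05 to 4.5e-05 for r). Without the 2 libraries farthest from the median, r was 0.853 to 0.996 and 0.906 to 0.969 for the macrophage and neutrophil pairs. With group means removed it was 0.925 to 0.998 among macrophage markers and 0.934 to 0.986 among neutrophil markers. The points share amplification kit and normalization, and replicates share age and time on doxycycline across groups.

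Macrophage and neutrophil markers were less alike across all libraries than within groups. For the 25 pairs with 1 gene of each set r was 0.268 to 0.563 (median 0.474) and rho 0.339 to 0.629, and 0 of 25 passed by r (adjusted permutation p 0.06 to 0.34) while 10 of 25 passed by rho. Without the 2 farthest libraries r was 0.274 to 0.619. With group means removed r between the sets was 0.555 to 0.831, so within groups a library high in one set tended to be high in the other. Among the 10 libraries not low in Y-linked transcripts, r between the sets was -0.14 to 0.30, while it was 0.925 to 0.998 among macrophage markers and 0.845 to 0.964 among neutrophil markers; the other class had 5 libraries, too few for a value of its own. With group means removed over the same 10 libraries, r between the sets was 0.316 to 0.782. Each group had 2 of these libraries, so its mean removed leaves 1 free deviation per group. These values therefore rest on 5 deviations, too few to draw on. The C1qb value minus the S100a8 value ran from -6.43 in GFP1 replicate I to -2.57 in GFP2 replicate II, a 14.5-fold range. GFP2 replicate I was the lowest of all 15 libraries for Ltf, Ngp and Camp and, for the macrophage markers, the lowest of its group.

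**Figure D4:**
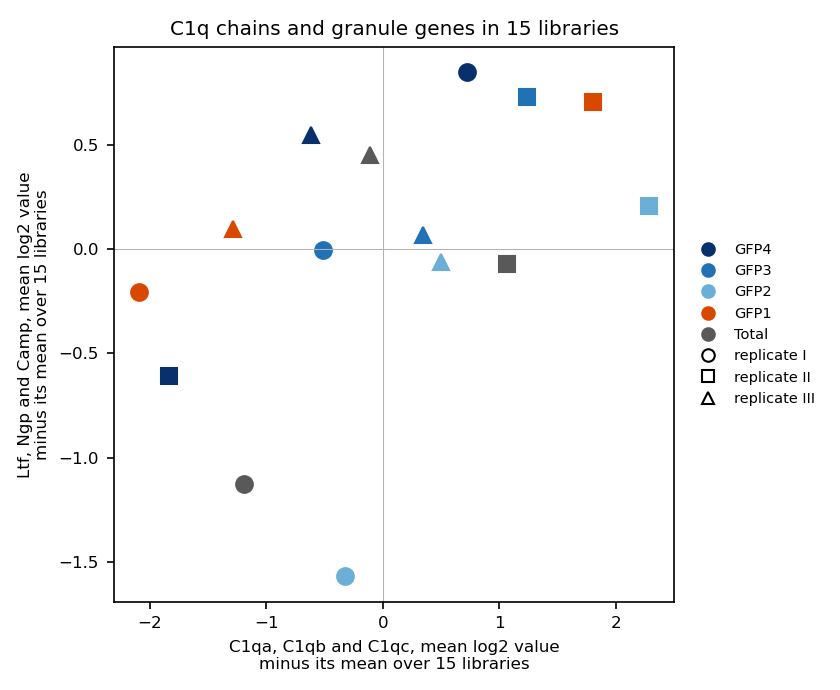
Mean log2 value of Ltf, Ngp and Camp (y axis) against that of C1qa, C1qb and C1qc (x axis), each minus its mean over the 15 libraries; colours are groups and symbols replicates. GFP2 replicate I is lowest on the y axis and GFP2 replicate II farthest to the right, so libraries of 1 group lie far apart.

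The genes most like each set in pattern were named by Pearson's r over the 15 libraries, among 5736 tested genes with a mean of at least 3 and an SD of at least 0.5. The mean of the C1q chains was followed most closely by Ms4a7 (r = 0.980), Cd68, a lysosomal protein of macrophages (0.979), Adgre1 (0.974), Lrp1, an endocytic receptor (0.973), Axl, a receptor for apoptotic cells (0.964), Fcgr1, the high-affinity IgG receptor (0.963), Adap2 (0.960) and P2ry6, a nucleotide receptor (0.956). The mean of S100a8 and S100a9 was followed by Camp (0.969), Ngp (0.962), Lcn2, a siderophore-binding granule protein (0.949), Wfdc21 (0.947), Ltf (0.937), Ifitm6 (0.925), Chil3, a chitinase-like protein (0.917), and C3 (0.905). The mean of Ltf, Ngp and Camp was followed by Lcn2 (0.982), Chil3 (0.972), S100a9 (0.969), Cd177, a neutrophil surface protein (0.964), S100a8 (0.956), Pram1 (0.930), Wfdc21 (0.928) and C3 (0.909). So 4 genes outside the members, Lcn2, Wfdc21, Chil3 and C3, stood on both neutrophil lists.

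Further markers of the same cells mostly moved with the members. Of 20 other macrophage genes, 12 had r of at least 0.8 and 19 had r of at least 0.5 with the C1q chains (median 0.891), among them Slc40a1, the iron exporter ferroportin (0.945), Siglec1, a sialic-acid receptor (0.938), and Mrc1, the mannose receptor (0.931). The exception was Marco, a scavenger receptor (0.185), whose level lay between 0.14 and 3.88. Of the 5733 genes considered with this profile, 79 had r of at least 0.8 and 342 had r of at least 0.5 (median -0.0054). Of 22 other neutrophil genes, 9 had r of at least 0.8 and 16 had r of at least 0.5 with Ltf, Ngp and Camp (median 0.734). Of the 5733 genes considered with that profile, 27 reached 0.8 and 437 reached 0.5 (median 0.022). The genes considered had to meet the minimum mean and SD, while the listed genes did not. Elane (0.741) and Mpo (0.699), primary granule genes that granulocyte and monocyte progenitors also transcribe, were among those in between. The lowest in the list were Padi4 (-0.149), which encodes a histone-modifying enzyme, Csf3r, the G-CSF receptor (0.062), and Retnlg (0.075).

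By the median of each list, markers of other cells followed the sets less closely. With the C1q chains the median r was 0.344 for 12 monocyte and dendritic genes, 0.061 for 12 stromal and endothelial genes, 0.041 for 10 erythroblast genes, -0.097 for 10 B and plasma cell genes, -0.022 for 8 T and NK cell genes and 0.063 for 12 HSC identity genes. With Ltf, Ngp and Camp the medians were 0.385, 0.013, 0.052, 0.030, -0.095 and -0.041 in the same order. Single genes came closer. Of the 12 monocyte and dendritic genes, 3 had r of at least 0.5 with the C1q chains (highest Cx3cr1, 0.790). With Ltf, Ngp and Camp 4 of them did (highest Ms4a6c, 0.829). Lyz2, in the list of other neutrophil genes, had r of 0.808 with the C1q chains. Bglap, an osteoblast gene, was the only gene of these lists with a median level under 2.

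**Figure D5:**
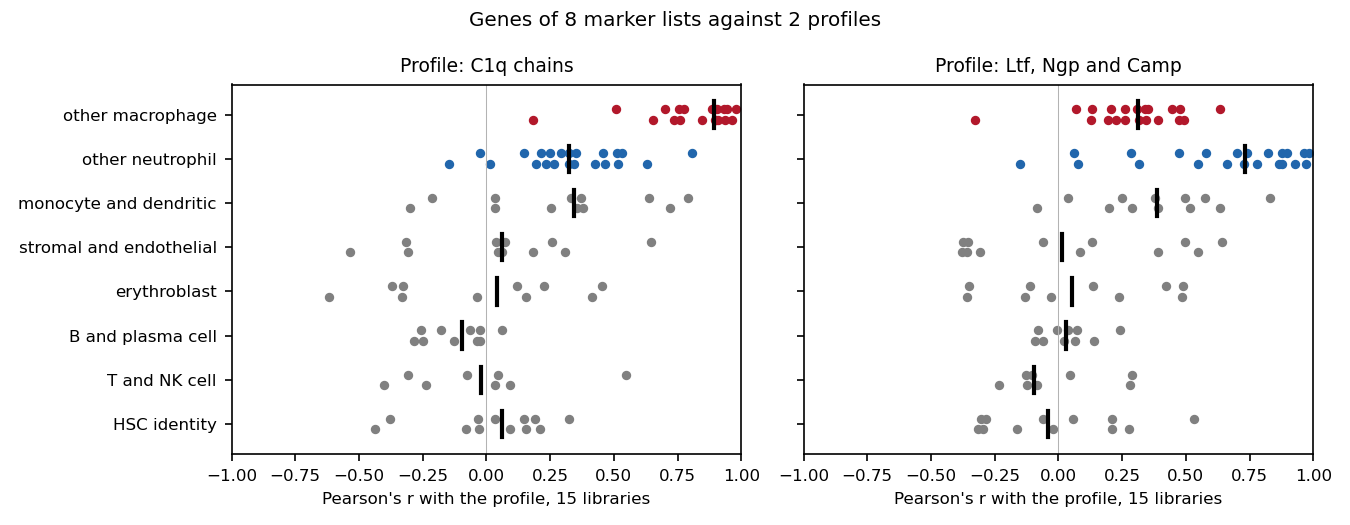
Pearson's r over 15 libraries (x axis) of each gene of 8 marker lists (rows; points are genes, black bars medians) with the mean of the C1q chains (left) and of Ltf, Ngp and Camp (right). Other macrophage genes have a median of 0.891 on the left and other neutrophil genes a median of 0.734 on the right.

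As a share of the summed linear values, the 5 macrophage markers were a small and variable part of each library. The lowest, median and highest libraries held 88.3, 131 and 344 ppm in GFP4, 224, 347 and 527 ppm in GFP3, 197, 357 and 1102 ppm in GFP2, 69.8, 96.8 and 772 ppm in GFP1, and 119, 167 and 451 ppm in Total. The 5 neutrophil markers held 2247, 4854 and 5961 ppm in GFP4, 3361, 3570 and 4920 ppm in GFP3, 1465, 3041 and 3752 ppm in GFP2, 2852, 3234 and 5302 ppm in GFP1, and 1487, 2886 and 4163 ppm in Total. The ranges of the groups overlapped for both sets. Over all libraries the macrophage sum varied 15.8-fold and the neutrophil sum 4.07-fold.

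Total, the undivided sort, was set beside the bins of the same number, and the outcome turned on GFP4, whose numbers are uncertain. For the macrophage markers the Total library was within the range of the 4 same-numbered bins for 5 of 5 genes in each of replicates I, II and III. For the neutrophil markers it was within that range for 3 of 5 genes in replicate I, with the other 2 below, for 5 of 5 in replicate II and for 4 of 5 in replicate III, with the other 1 above. Against the 3 bins other than GFP4, the Total library was within the range for 5 of 5 macrophage markers in replicates I and III and for 1 of 5 in replicate II, with the other 4 below. Among the neutrophil markers it was then within the range for 3 of 5 in replicate I, below it for 5 of 5 in replicate II and above it for 5 of 5 in replicate III. Whether these libraries share mice is not stated.

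The other marker lists were tested in the same fit. Of the 20 other macrophage genes limma called 0 in the F test and 0 in each of the 8 comparisons, while 5 of 20 passed an unadjusted p of 0.05 in GFP3 against GFP4, where 5.86% of all tested genes did. In that comparison all 3 GFP3 libraries lay above all 3 GFP4 libraries for 10 of the 20, where 11.4% of all tested genes separated in either direction. One of them was Itgad, an integrin subunit of tissue macrophages, at 7.98, 8.38 and 8.77 in GFP3, against 5.29, 5.91 and 6.05 in GFP4 (difference 2.63, SE 0.87, limma adjusted p = 0.551). Another was Cd5l, a secreted macrophage protein, at 9.39, 8.98 and 9.65 in GFP3, against 5.99, 7.54 and 7.09 in GFP4 (difference 2.46, SE 0.90, limma adjusted p = 0.664). Both were named after their values were seen, and neither passed the test. The 20 genes mostly varied together (median r 0.891 with the C1q chains), so the 10 that separated are not independent. The same limit holds for the neutrophil list below.

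Of the 22 other neutrophil genes limma called only Padi4 in the 8 comparisons, and it did not follow the members. Padi4 was called in GFP1 against GFP2, where 7.17% of all tested genes were called, and in GFP1 against GFP4, where 19.5% were. It was at 10.74, 10.50 and 10.32 in GFP1, against 11.36, 11.11 and 11.14 in GFP2 (difference -0.68, SE 0.13, limma adjusted p = 0.00306) and 11.35, 11.53 and 11.36 in GFP4 (difference -0.89, SE 0.13, limma adjusted p = 5.2e-05). In GFP1 against GFP2 the libraries separated completely for 9 of the 22, with 7 higher in GFP1, where 24.6% of all tested genes separated in either direction. Among them were the primary granule genes Mpo (difference 2.12, SE 0.59, limma adjusted p = 0.0586) and Elane (difference 1.98, SE 0.62, limma adjusted p = 0.0924), which did not pass the test and were named after their values were seen. In GFP1 against GFP4, where 19.5% of all tested genes were called, the members' lists stood beside lists that did change. All 10 of 10 B and plasma cell genes were called higher, and 9 of 12 HSC identity genes were called lower. B and plasma cell genes summed to 4176 to 5075 ppm in GFP1, against 308 to 411 ppm in GFP4. Also called in that comparison were 3 of 10 erythroblast genes and 2 of 8 T and NK cell genes, all higher, and 2 of 12 stromal and endothelial genes, both lower.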

How the data were processed

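RNA of sorted HSCs was amplified with SMART-Seq v4 and made into libraries with Nextera XT, per the labels' protocols. kallisto 0.43.0 and GRCm38 are named per the submitters' processing notes. The authors deposited log2 values for 31298 gene symbols in 15 libraries; the values show that they were quantile normalized. Their unit before normalization, offset and read depth are unknown, as not given in the sources used here; no counting interval is therefore given. Quantile normalization hides differences in total RNA, and abundant transcripts of 1 library lower the ranks of its other genes.

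The members and all marker lists were chosen with earlier results of these data known. A gene entered the test if 3 or more libraries had a linear value of 1 or more, where the linear value is 2 raised to the deposited number, less 1. These 27994 genes were fitted with limma 3.58.1 in R 4.3.3, two-sided: 1 mean per group over all 15 libraries, intensity trend, robust moderation, residual df 10, Benjamini-Hochberg adjustment over all tested genes at 0.05. The model was first tested on simulated data. Correlations used 100000 permutations. All members are named; the 8 genes most like each of 3 mean profiles were named by r, leaving out predicted genes. From the other lists, genes called by smallest p could be named. Bases before each gene start come from RefSeq; other spellings of both motifs were tried while choosing them. Ppm values are shares of a library's summed linear values. Alternatives were a replicate block, no filter, a pseudocount of 0.1, quantile normalization without 351 immunoglobulin genes, array weights, a fit of the compared groups alone and each library left out; those using the Y-linked class (Ddx3y under 8) were chosen after seeing the data.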

Additional observations from a re-analysis of the deposited data

How the results depend on the processing

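In 206 alternative fits over 23 settings, 0 had a member called by limma. The lowest limma adjusted p of any member was 0.146, in GFP1 against GFP2 without GFP1 replicate II. Over all genes, the F tests among these fits called from 2561 (without the 5 libraries low in Y-linked transcripts) to 4773 (array weights). The difference of C1qa between GFP1 and GFP4 (-0.037 as reported) changed sign to 0.038 under quantile normalization without immunoglobulin genes, to 0.49 with array weights and to 0.14 without the 5 libraries low in Y-linked transcripts; the cause was not tested. Leaving out 1 library at a time, it ran from -1.25 to 0.79. Over the same fits C1qa ran from -2.65 to -0.61 in GFP1 minus GFP2 (lowest without GFP1 replicate II, highest without GFP1 replicate I) and from 0.25 (without GFP2 replicate II) to 1.63 (without Total replicate II) in GFP2 minus Total, Ngp from 0.038 to 0.91 in GFP1 minus GFP2, and S100a8 from 0.27 (without Total replicate I) to 1.12 (without GFP4 replicate II) in GFP4 minus Total. Where 1 group is left with 2 libraries, they are assumed to vary like the other groups. With a replicate block limma called 0 of 10 members in all 9 tests. That block took the uncertain GFP4 numbers as given, so it may match GFP4 libraries wrongly. Over all genes, calls in GFP3 against GFP4 numbered 48 with the replicate block and 16 without it. They numbered 5 and 0 in GFP2 against GFP3, and 927 and 599 in GFP3 against Total. Same-numbered libraries correlated in their deviations from the group means at a median of 0.22 over 30 pairs (lowest -0.40; 21 over 0.1), against -0.10 over 60 pairs of different number. Among the 18 same-numbered pairs without GFP4, 17 were over 0.1 (median 0.24), while 4 of the 12 with GFP4 were. This is a hint from the data that the numbers pair libraries outside GFP4; since not every pair passed 0.1, the numbers were not used as pairs. A pseudocount of 0.1 or normalization without immunoglobulin genes left the members' within-group SDs at 0.984 to 1.00 times those reported. Read depth is unknown, so what depth limits could not be stated.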

Other observations

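Monocyte and dendritic cell genes included some that were called between bins. In GFP1 against GFP4 limma called 4 of 12, with 3 higher and 1 lower, where 19.5% of all tested genes were called. Ly6c2, a surface protein of inflammatory monocytes that some plasma cells also carry, was higher by 2.15 (SE 0.48, limma adjusted p = 0.00898). In GFP1 against GFP2 limma called 1 of 12, where 7.17% of all tested genes were called. That gene was Ly6c2, higher by 2.99 (SE 0.48, limma adjusted p = 0.00394). Flt3, a receptor of multipotent progenitors and dendritic cells, fell by 0.60 in GFP1 against GFP4 (SE 0.14, limma adjusted p = 0.00373). Whether these differences differ from those of the members was not tested.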
